A study of Mus musculus with 6 samples.

Results

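The genes described here are those by which NK cells are switched on: 4 activating receptors (Ncr1, Cd226, Slamf7 and Fcgr3), the 4 adaptors that carry or accompany such receptors (Fcer1g, Tyrobp, Hcst and Cd247) and the 2 kinases that dock onto the adaptors (Zap70 and Syk). They were chosen by name, as 10 of the 25690 gene symbols in the tables, and all 10 passed the filter on low counts that left 15474 genes for testing. RNA was sequenced from CD27SP NK cells (CD27 single-positive, gated on NK1.1 and CD27 as positive and on CD11b and CD3 as negative, the immature NK cells) from the BM (bone marrow) of C57BL/6-background mice. Mice of both groups carried the Ncr1cre allele, with either normal Myc (Ncr1cre Myc wt/wt, 3 libraries) or floxed Myc (Ncr1cre Myc fl/fl, 3 libraries), and are called wt/wt and fl/fl below. The Cre becomes active once a cell turns on Ncr1, so a member of the set also drives the deletion, and cells sorted without an Ncr1 gate may hold some that had not yet expressed it. The replicate numbers are 1, 2 and 4 in both groups. The labels do not say which mice gave which library, so p-values measure the spread between these libraries.

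Most NK activating receptors have short tails without signalling motifs and sit in the membrane beside an adaptor. FcRγ (Fcer1g), DAP12 (Tyrobp) and CD3ζ (Cd247) carry ITAMs, paired tyrosines that Src family kinases phosphorylate and that then bind Syk or ZAP-70, whereas DAP10 (Hcst) carries a single tyrosine motif that binds PI3-kinase. NKp46 (Ncr1) and the low affinity Fc receptor CD16 (Fcgr3) rely on such adaptors, and CD16 lets NK cells kill antibody-coated targets. CD226 binds nectin-like ligands, and CRACC (Slamf7) binds itself on neighbouring cells and signals through the SAP family.

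The coding stretches of the adaptor motifs are shown because they set the adaptors apart. They were found by translating the main transcript of each gene, and codons of the motif tyrosines are in capitals, 5′ to 3′ on the coding strand (GENCODE M21 transcripts, GRCm38). The ITAM of Fcer1g lies on the minus strand within chr1:171229889-171230072, that of Tyrobp on the plus strand within chr7:30415670-30417382, and the 3 of Cd247 on the plus strand within chr1:165856451-165857454, chr1:165858473-165859260 and chr1:165859819-165861042. Each ITAM is split over 2 coding exons. The Hcst motif lies in exon 4 of 4 on the minus strand at chr7:30417821-30417832.
Fcer1g: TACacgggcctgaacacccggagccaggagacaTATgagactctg
Tyrobp: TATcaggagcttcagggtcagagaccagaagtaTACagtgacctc
Cd247, the first: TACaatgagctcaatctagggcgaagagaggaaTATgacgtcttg
Cd247, the second: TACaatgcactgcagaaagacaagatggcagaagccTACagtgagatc
Cd247, the third: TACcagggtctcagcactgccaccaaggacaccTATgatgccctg
Hcst: TACatcaacatg
The ITAMs spanned 45 bases, except the second of Cd247 with 48, and the motif of Hcst spanned the 12 bases shown.

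The estimated counts summed to 8101219 in wt/wt library 1 and to between 54550907 and 64962491 in the other 5 libraries, so wt/wt library 1 carries the least information. Levels are given as CPM (counts scaled to the library total, with TMM factors) within a gene and as TPM (per transcript length) between genes. The deletion was visible in Myc itself, at 200.5, 183 and 164 CPM in wt/wt and 61.5, 64.6 and 76.5 CPM in fl/fl libraries 1, 2 and 4 (log2 fold change -1.44, SE 0.15, edgeR adjusted p = 0.0019). Across all genes, 333 of 15474 were called with an adjusted p under 0.01 and a log2 fold change of 0.5 or more in either direction, which is 2.15%, with 0.872% lower and 1.28% higher in fl/fl. An unadjusted p below 0.05 was found for 22.5% of the genes, with 10.2% lower and 12.4% higher. The fl/fl libraries held more of other cells' markers, as described further on.

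Of the 10 genes, Fcgr3 was called lower in fl/fl, none was called higher, and the other 9 did not pass the test. The log2 fold changes were below 0 for 5 members and above 0 for 5, with a median of 0.0034 beside 0.014 over all tested genes. The libraries of both genotypes did not overlap in CPM for 3 members (Fcgr3 and Zap70 lower, Slamf7 higher in fl/fl), beside 31.3% of all tested genes (15.1% lower and 16.2% higher).

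**Figure D1:**
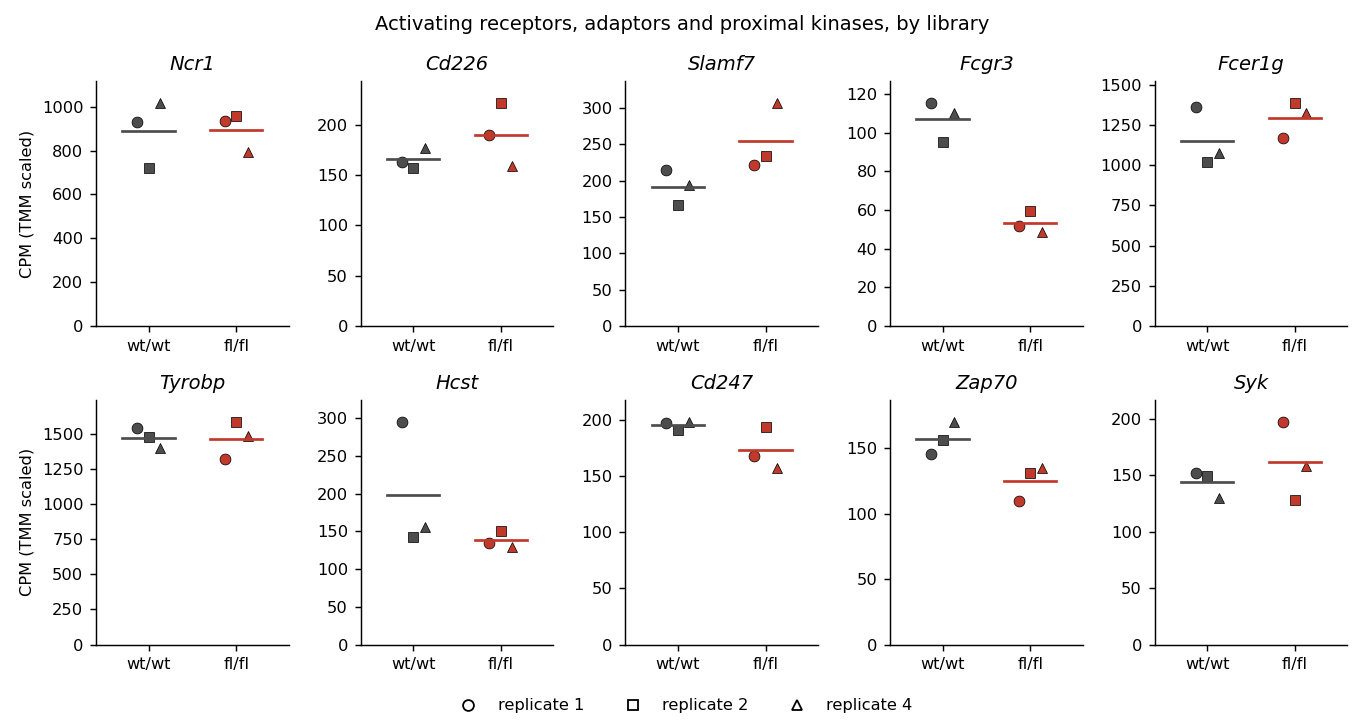
CPM (TMM scaled, linear axis from 0) of each of the 10 genes in the 3 wt/wt (grey) and 3 fl/fl (red) libraries, with the replicate number as the symbol and the group mean as a line. The fl/fl points of Fcgr3 sit between 48.7 and 59.4, all below the wt/wt points at 94.96 to 115, and the high wt/wt point of Hcst is library 1.

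Fcgr3 (chr1:171051174-171064935, minus strand, protein coding) stood at 115, 94.96 and 110.2 CPM in wt/wt and at 51.9, 59.4 and 48.7 CPM in fl/fl libraries 1, 2 and 4. Every fl/fl library was below every wt/wt library, and the group mean fell to 49.9% of wt/wt. The log2 fold change was -1.001 (SE 0.15, 95% interval -1.34 to -0.66, edgeR adjusted p = 0.00571), lower in 3 of 3 replicate numbers. DESeq2 gave an adjusted p of 3.6e-07 and limma-trend 0.00794. The direction held in all 19 alternatives, with log2 fold changes from -1.22 to -0.93, but the call was lost in 8 of them. Fcgr3 missed the limit without replicate 1 (edgeR adjusted p = 0.0281), without replicate 4 (0.0169), with offsets for effective length (0.0216) and with library size as the only scaling (0.0121). In the unblocked fit it was also lost on leaving out wt/wt library 4 (edgeR adjusted p = 0.0142), fl/fl library 1 (0.0200), fl/fl library 2 (0.0125) or fl/fl library 4 (0.0107).

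The lower level of Fcgr3 was seen in its main transcripts. Fcgr3-201, which carried 82.3% to 90.1% of the gene's estimated counts in every library, had 98.1 ± 4.6 TPM in wt/wt and 54.4 ± 5.2 TPM in fl/fl (SD, n = 3). Fcgr3-204, the other full-length coding transcript, had 12.3 ± 2.9 TPM in wt/wt and 4.57 ± 0.50 TPM in fl/fl. The short coding transcript Fcgr3-202 was at 3.77 ± 1.24 and 3.71 ± 0.84 TPM, and the retained-intron transcript Fcgr3-203 at 4.07 ± 1.80 and 2.20 ± 1.35 TPM. These are the deposited estimates and were not tested per transcript.

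Fcgr3 shares sequence with Fcgr2b, the inhibitory Fc receptor, which could lead reads to be shared out between both. Of 1733 distinct stretches of 100 bases in the Fcgr3 transcripts, 44 (2.54%) also stood in Fcgr2b, and of 1733 stretches of 31 bases, 233 (13.4%) did. The longest common run, 129 bases in capitals, lies in exons 3 and 4 of 5 on the minus strand within chr1:171054167-171057792, and 12 bases of Fcgr3 on either side are in lower case.
Fcgr3-201: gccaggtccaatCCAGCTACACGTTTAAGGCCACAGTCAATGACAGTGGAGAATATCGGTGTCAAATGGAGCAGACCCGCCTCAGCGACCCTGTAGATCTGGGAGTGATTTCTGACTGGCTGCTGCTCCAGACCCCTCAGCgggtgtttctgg
All 153 bases shown are coding. Fcgr2b itself was at 6.24, 8.34 and 5.30 TPM in wt/wt and 6.07, 5.84 and 3.86 TPM in fl/fl, against 111.5 to 124 and 59.3 to 70.3 TPM for Fcgr3. The log2 fold change of Fcgr2b in CPM was -0.42 (SE 0.24, edgeR adjusted p = 0.343). Fcgr4, another activating Fc receptor, was at no more than 0.122 CPM in any library, and Fcgr1 had no count in wt/wt and 0.151 to 0.187 CPM in fl/fl. Neither reached the filter.

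**Figure D2:**
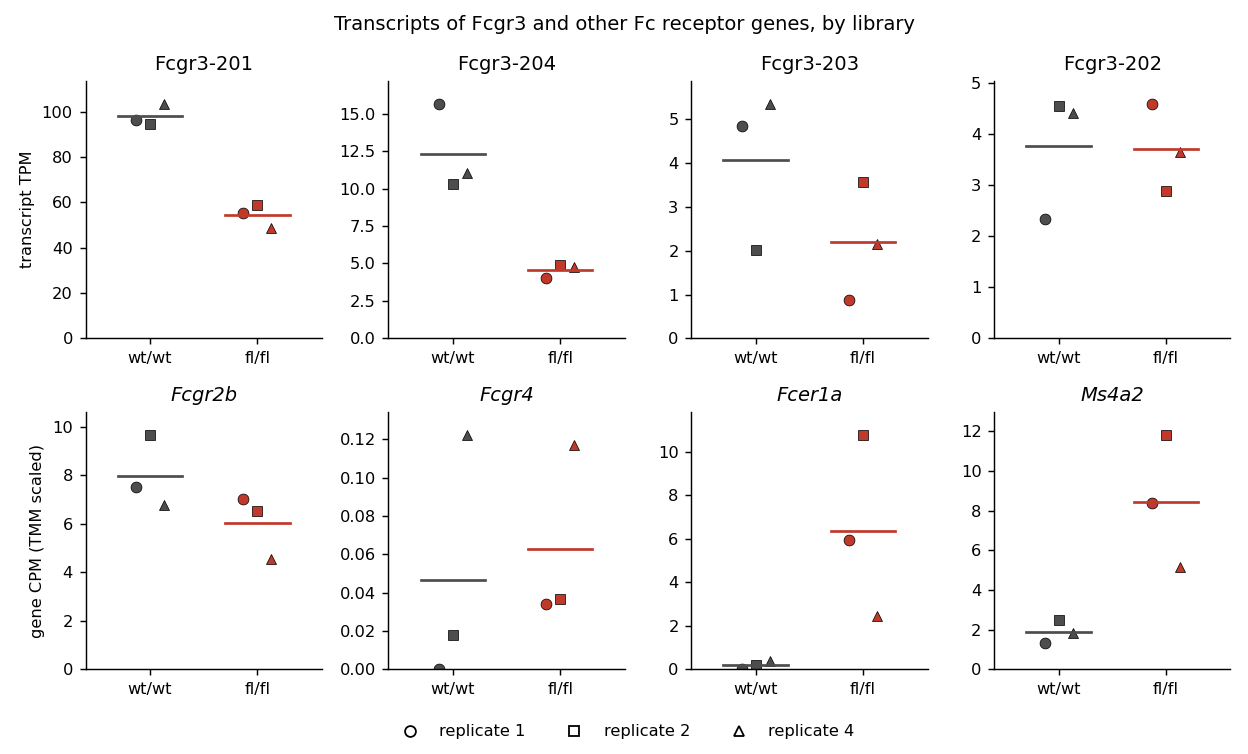
Top row, TPM of the 4 transcripts of Fcgr3, and bottom row, CPM (TMM scaled) of 4 other Fc receptor genes, in wt/wt (grey) and fl/fl (red) libraries, with symbols for the replicate number, lines for the means and linear axes from 0. Fcgr3-201 and Fcgr3-204 separate the genotypes downwards, while Fcer1a and Ms4a2 separate them upwards from 0.382 CPM or less and from 2.48 CPM or less.

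The 3 other receptors did not pass the test. Ncr1 (chr7:4337724-4345164, plus strand), which also drives the Cre, stood at 931, 723 and 1016 CPM in wt/wt and at 935, 958 and 793 CPM in fl/fl. All fl/fl values lay inside the wt/wt range, and the log2 fold change was 0.019 (SE 0.16, 95% interval -0.35 to 0.39, edgeR adjusted p = 0.971). Both of its coding transcripts held steady shares, with Ncr1-201 at 57.7% to 61.5% of the gene's counts in all 6 libraries. Cd226, on chromosome 18, had 163, 157 and 177 CPM in wt/wt and 189.6, 221 and 159 CPM in fl/fl. Its groups overlapped through fl/fl library 4, and the log2 fold change was 0.19 (SE 0.15, 95% interval -0.16 to 0.53, edgeR adjusted p = 0.539). This log2 fold change was 0.042 without replicate 2 and 0.34 without replicate 4. Of 10 annotated Cd226 transcripts, 2 were in the tables used here.

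Slamf7 (chr1:171632403-171653035, minus strand) was at 215, 166.5 and 195 CPM in wt/wt and at 222, 234 and 307 CPM in fl/fl. All fl/fl libraries were above all wt/wt libraries, with the gap between wt/wt library 1 and fl/fl library 1 the narrowest. The log2 fold change was 0.40 (SE 0.15, 95% interval 0.06 to 0.74), which did not pass after adjustment (edgeR adjusted p = 0.155). Without replicate 4, whose fl/fl library had the highest value, it was 0.25, and without replicate 1 it was 0.57. It stayed above 0 in all 19 alternatives (0.18 to 0.57) and was called in none. An antisense gene overlaps Slamf7 over 1144 bases, it was not analysed here, and the library kit does not mark strand. Of the SAP family that Slamf7 and its relatives signal through, Sh2d1a (log2 fold change -0.38, edgeR adjusted p = 0.123), Sh2d1b1 (0.079, 0.816) and Sh2d1b2 (0.63, 0.115) were not called by edgeR (2 at an unadjusted p below 0.05), DESeq2 or limma-trend.

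None of the 4 adaptors passed the test in edgeR, DESeq2 or limma-trend, with 0 at an unadjusted p below 0.05. Tyrobp and Fcer1g were the most abundant of all 10 genes per length. Tyrobp (chr7:30413760-30417585, plus strand) had 1544, 1481 and 1405 CPM in wt/wt and 1324, 1589.9 and 1488 CPM in fl/fl, with overlapping groups. Its log2 fold change was -0.012 (SE 0.14, edgeR adjusted p = 0.978), and its sign changed under 8 of 19 alternatives, where it reached at most 0.093. Fcer1g (chr1:171229572-171234365, minus strand) had 1361, 1022 and 1075 CPM in wt/wt and 1170.1, 1385 and 1328 CPM in fl/fl. The wt/wt library 1 was within the fl/fl range and the other 2 were below it, and the log2 fold change was 0.18 (SE 0.16, 95% interval -0.18 to 0.53, edgeR adjusted p = 0.585). This log2 fold change was 0.37 without replicate 1, 0.053 without replicate 2 and 0.092 without replicate 4.

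Cd247 (chr1:165788681-165877277, plus strand) had 197, 191 and 198 CPM in wt/wt and 168, 194 and 157 CPM in fl/fl. The wt/wt libraries lay close together and fl/fl library 2 fell among them, and the log2 fold change was -0.18 (SE 0.14, 95% interval -0.49 to 0.12, edgeR adjusted p = 0.492). This log2 fold change was -0.27 without replicate 2 and -0.13 without replicate 4, and in the unblocked fits it was -0.18 with all libraries and -0.10 without fl/fl library 4. Pou2f1, which encodes the transcription factor Oct-1, overlaps the 3′ part of Cd247 on the other strand, so that 49.4% of the 100-base stretches of all Cd247 transcripts also stand in Pou2f1. None of the stretches of Cd247-201 do, and this transcript carried 94.2% to 96.4% of the gene's counts in every library. Its level was 169 ± 8.3 TPM in wt/wt and 159 ± 16.8 TPM in fl/fl (SD, n = 3).

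Hcst (chr7:30417712-30419854, minus strand) had 296, 143 and 156 CPM in wt/wt and 135, 151 and 129.6 CPM in fl/fl. Library 1 of wt/wt, the shallow one, stood alone, and the other 2 wt/wt libraries overlapped with fl/fl. The log2 fold change was -0.44 (SE 0.21, 95% interval -0.91 to 0.03, edgeR adjusted p = 0.259), and it was -0.094 without replicate 1 (edgeR adjusted p = 0.812). In the same library the minor coding transcript Hcst-203 was at 154 TPM, against 9.82 to 22.3 TPM in the other 5. Hcst and Tyrobp are neighbours whose 3′ ends face each other 126 bases apart, and the split of Tyrobp was also unlike the others in wt/wt library 1. There Tyrobp-201 held 87.2% of the gene's counts, against 48.8% to 63.9% in the other 5 libraries.

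The kinases differed in direction in the main fit, and neither passed the test in edgeR, DESeq2 or limma-trend, although Zap70 had an unadjusted p of 0.0291. Zap70 (chr1:36761798-36782818, plus strand) had 145.5, 156 and 170.04 CPM in wt/wt and 109, 131 and 135 CPM in fl/fl. Every fl/fl library was below every wt/wt library, and the log2 fold change was -0.33 (SE 0.13, 95% interval -0.62 to -0.04, edgeR adjusted p = 0.162). Syk (chr13:52583173-52648792, plus strand) had 152, 149 and 129.9 CPM in wt/wt and 198, 128 and 159 CPM in fl/fl. Its fl/fl libraries spanned the whole wt/wt range, and the log2 fold change was 0.15 (SE 0.15, 95% interval -0.19 to 0.49, edgeR adjusted p = 0.638). This log2 fold change was 0.036 without replicate 1, 0.34 without replicate 2 and 0.059 without replicate 4. It was -0.0013 in the unblocked fit without fl/fl library 1 and -0.069 with scaling to NK markers (described further on). The ratio of Zap70 to Syk in TPM was 2.77, 2.83 and 3.79 in wt/wt and 1.56, 2.93 and 2.43 in fl/fl. The ratios overlapped between genotypes (exact permutation test, two-sided, p = 0.3, where 3 against 3 libraries can give no less than 0.1).

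**Figure D3:**
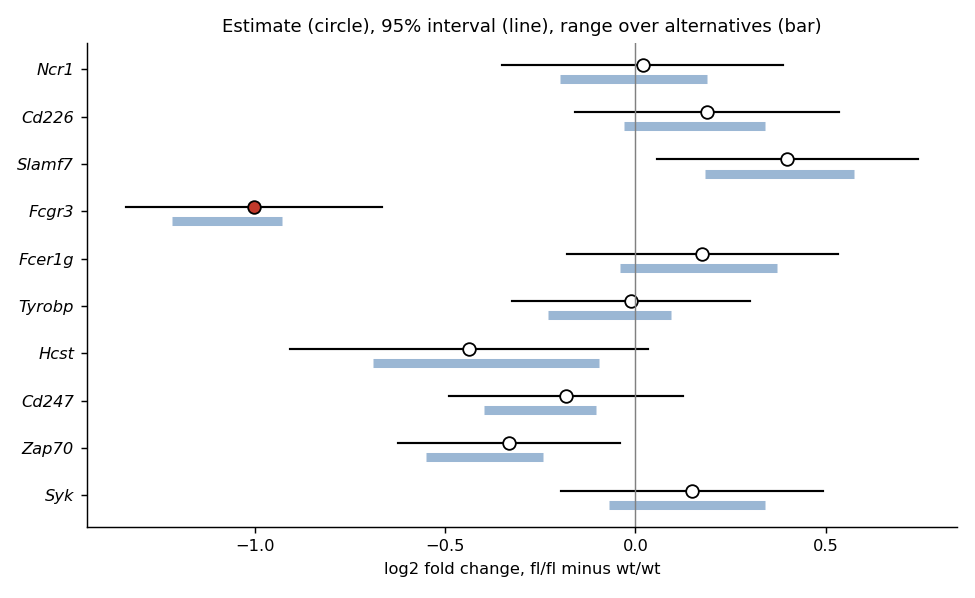
Log2 fold change (fl/fl minus wt/wt) of each gene with its 95% interval (circle and line) and the range over the alternatives (blue bar). The filled circle marks the called gene, Fcgr3 at -1.001. The bar of Fcgr3 runs from -1.22 to -0.93, while the bars of Ncr1, Cd226, Fcer1g, Tyrobp and Syk cross 0.

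Per length, the 10 genes spanned about 2 orders of magnitude on the log10 scale of TPM. In wt/wt the order by mean was Tyrobp (4547 ± 181 TPM, SD, n = 3), Fcer1g (2904 ± 285), Hcst (922 ± 340), Ncr1 (815 ± 116.5), Slamf7 (210.2 ± 17.3), Cd247 (178 ± 7.4), Zap70 (125 ± 15.5), Fcgr3 (118 ± 6.3), Cd226 (95.6 ± 4.7) and Syk (40.1 ± 3.6). The ranges of Hcst and Ncr1 overlapped, as did those of Zap70 and Fcgr3, and the other neighbours in this order were separate. Mean CPM placed Tyrobp above 99.7% of the tested genes and Fcgr3, the lowest of the set, above 80.7%. In fl/fl the mean of Fcgr3 was 64.8 ± 5.5 TPM, so that its range (59.3 to 70.3 TPM) lay below those of Zap70 and Cd226 and met that of Syk (38.4 to 59.9 TPM). The adaptor Fcer1g was at 3531 ± 228 TPM in fl/fl, and the ratio of Fcgr3 to Fcer1g was 0.0368, 0.0410 and 0.0450 in wt/wt and 0.0198, 0.0189 and 0.0165 in fl/fl. These ratios did not overlap, and since Fcgr3 had been found lower, they are given as a description.

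**Figure D4:**
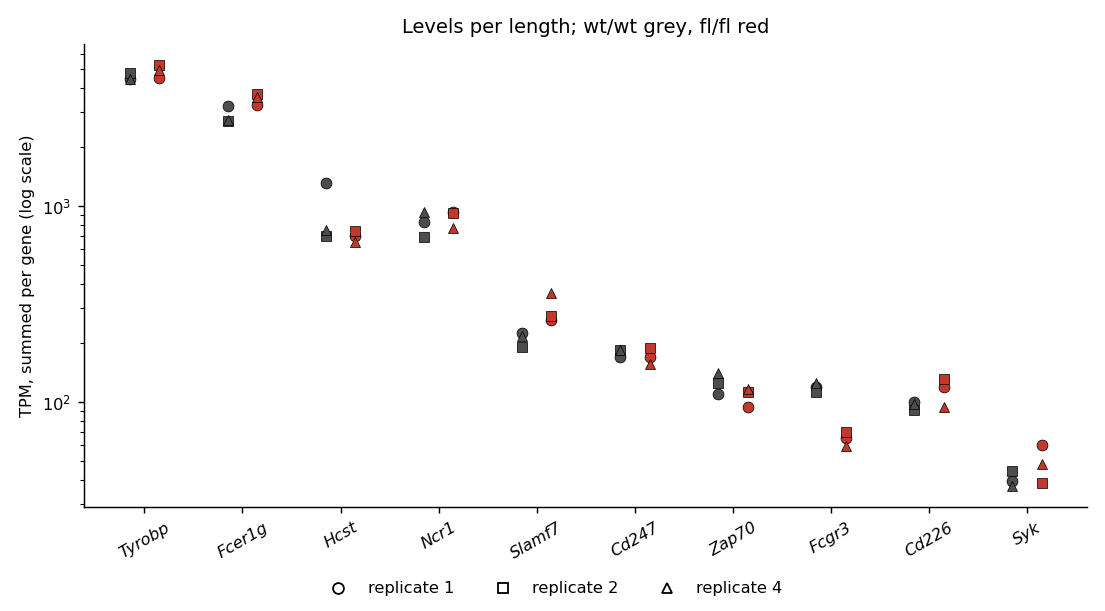
TPM of each gene (log axis) in wt/wt (grey) and fl/fl (red) libraries, ordered by the wt/wt mean, with symbols for the replicate number. Tyrobp and Fcer1g lie at 2722 TPM or more in every library, Syk lies at 59.9 TPM or less, and Fcgr3 moves from 111.5 to 124 TPM down to 59.3 to 70.3 TPM.

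Some members are also made by myeloid cells, basophils or mast cells, which carry CD16, FcRγ, DAP12 and SYK. Most marker lists of such cells summed to more in fl/fl. The 10 basophil and mast cell markers summed to 15.3 to 19.1 CPM in wt/wt and 124 to 337 CPM in fl/fl (8 of 10 called higher), led by Prss34 and Mcpt8. The 6 granulocyte-monocyte progenitor markers, mostly Mpo, went from 82.5 to 125 up to 522 to 878.5 CPM (5 of 6 called higher). Monocyte markers summed to 1453 to 1749 and 1761 to 2102 CPM (3 of 8 called higher), most of which was Ccr2, which NK cells make as well. Neutrophil markers summed to 4.81 to 17.8 and 17.2 to 32.5 CPM (1 of 9 tested called higher), with ranges that met. The erythroid (43.8 to 280 and 544 to 1149 CPM, 2 of 8 called higher), plasmacytoid dendritic (61.3 to 66.1 and 91.1 to 112.7 CPM, 2 of 5) and platelet lists (5.07 to 10.8 and 18.6 to 62.0 CPM, 1 of 6) were higher too. The B cell list summed to 4.55 to 8.64 and 11.5 to 16.3 CPM and the T cell list to 390.4 to 767 and 473 to 616 CPM, with no call in either by edgeR (2 of 5 and 4 of 8 tested at an unadjusted p below 0.05), DESeq2 or limma-trend. No marker of these lists was at 0 in all 6 libraries.

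The NK cell markers summed to 16112 to 16144 CPM in wt/wt and 17901 to 19796 CPM in fl/fl, and were abundant in all 6 libraries. The highest sum, in fl/fl library 4, rested on Gzmb and Prf1, which encode the cytotoxic proteins granzyme B and perforin. Gzmb was at 212, 186 and 166 CPM in wt/wt and at 472, 358 and 1488 CPM in fl/fl, and Prf1 at 616, 689 and 498 CPM and at 846, 891 and 1987 CPM. Without these genes the sum was 15262 to 15479 CPM in wt/wt and 16582, 17340 and 16320 CPM in fl/fl, with library 4 the lowest of the fl/fl libraries. Gzma, which encodes granzyme A, was at 2024, 1587 and 1516 CPM in wt/wt and at 1030, 900.5 and 1380 CPM in fl/fl (log2 fold change -0.64, edgeR adjusted p = 0.0564). Gzma and the receptor gene Klre1 (-0.43, 0.112) were below the wt/wt range in every fl/fl library without passing the test. None of the 12 was called by edgeR (2 lower and 3 higher at an unadjusted p below 0.05), none by limma-trend and 1, lower, by DESeq2. Of 7 markers of mature NK cells, 4 had log2 fold changes below 0 and 3 above. S1pr5 and Cma1 were called lower, with overlapping CPM groups for S1pr5, while Cx3cr1 (log2 fold change 0.87, edgeR adjusted p = 0.116) and Prdm1 (0.51, 0.235) were above the wt/wt range in every fl/fl library without passing the test. Of 6 markers of immature NK cells, 5 had log2 fold changes above 0 and 3 an unadjusted p below 0.05, with 1 called higher by edgeR, 2 by DESeq2 and 1 by limma-trend. Cd69, an early activation marker of lymphocytes, was at 324, 298 and 390 CPM in wt/wt and at 447, 562 and 652 CPM in fl/fl, separate but not called by edgeR (log2 fold change 0.71, adjusted p = 0.0177). The gene called by edgeR was Kit, a receptor that mast cells and progenitors carry as well, at 84.3, 63.6 and 83.4 CPM in wt/wt and at 241, 188 and 134 CPM in fl/fl, where the basophil and mast cell list stood at 280, 337 and 124 CPM. The part of such cells in its value was not tested. None of the 6 ILC1 markers was called by edgeR (1 at an unadjusted p below 0.05), DESeq2 or limma-trend. The part of the other cells in the values of Fcer1g, Tyrobp, Syk and Fcgr3 was not tested, and in bulk RNA fewer cells of a type and less RNA per cell cannot be told apart. Scaling to the NK markers shifted the median of all genes to -0.20 and split the calls into 421 lower and 131 higher, against 135 and 198. Since this moved all genes by about the same step, Fcgr3 was then at -1.22 (edgeR adjusted p = 0.00289), and Ncr1, Cd226, Fcer1g and Syk took values below 0. Zap70 was at -0.55 (edgeR adjusted p = 0.0231), Hcst at -0.65 (0.0633), Cd247 at -0.40 (0.0893), Tyrobp at -0.23 (0.295) and Slamf7 at 0.18 (0.442), none of them called. With Gzmb and Prf1 left out of this scaling, an alternative chosen after seeing the data, the median of all genes was at -0.11 and the calls split into 163 lower and 112 higher. Fcgr3 was at -1.13 (edgeR adjusted p = 0.00524), Zap70 was at -0.46 (0.060), Ncr1 was at -0.11, and Cd226, Fcer1g and Syk were at 0.062, 0.050 and 0.023.

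**Figure D5:**
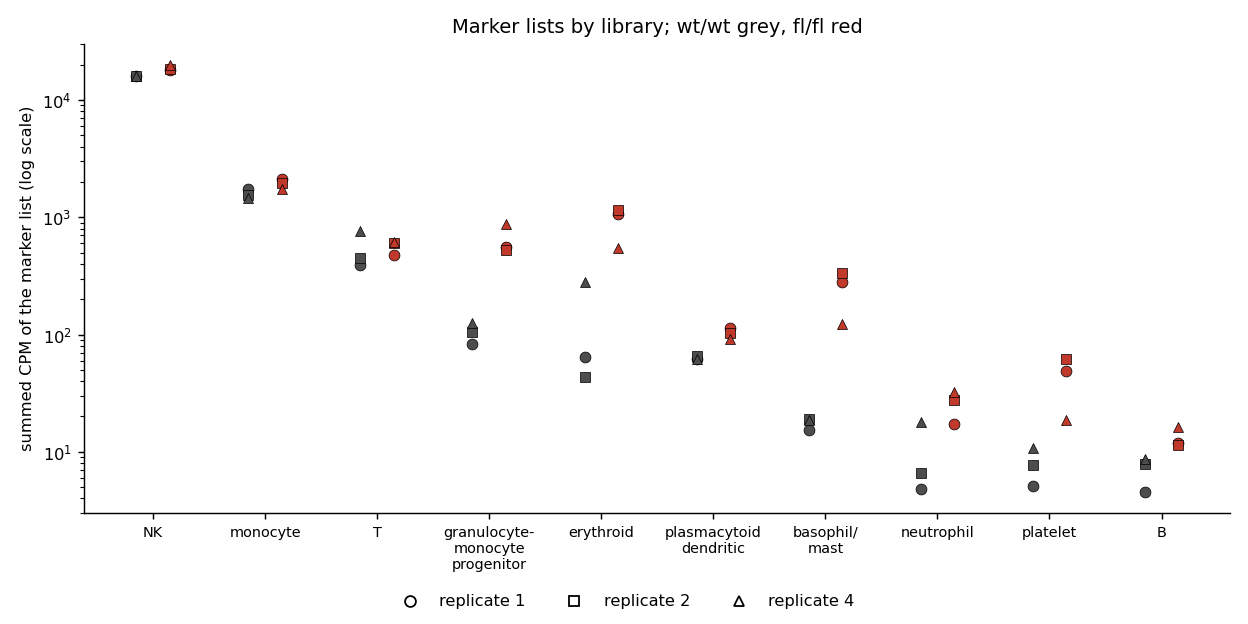
Summed CPM of each marker list (log axis) in wt/wt (grey) and fl/fl (red) libraries, with symbols for the replicate number. The NK list lies between 16112 and 19796 CPM in all libraries, and the basophil and mast cell list moves from at most 19.1 to at least 124 CPM.

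Around the 10 genes, 78 of 83 listed genes of the same signalling pathways were tested. In edgeR 1 was called lower and 4 higher in fl/fl, 23 had log2 fold changes below 0 and 55 above, and their median was 0.15. These signs, like those of the members, depend on the scaling. Among other receptors, 2 of 17 were called higher by edgeR, 2 higher and 1 lower by DESeq2 and 1 higher by limma-trend. Tnfrsf9 (4-1BB, a costimulatory receptor) stood at 166.3, 182 and 189.6 CPM in wt/wt and at 401, 504 and 823 CPM in fl/fl (log2 fold change 1.62, SE 0.18, edgeR adjusted p = 0.00204). Tigit, an inhibitory receptor that competes with CD226 for ligands, stood at 27.2, 32.7 and 34.3 CPM in wt/wt and at 43.8, 65.5 and 63.6 CPM in fl/fl (log2 fold change 0.87, SE 0.15, edgeR adjusted p = 0.00878). Both genes were higher in every fl/fl library. Tnfrsf9 lost its call in 5 of 19 alternatives, among them the unblocked fits without wt/wt library 1, 2 or 4 or fl/fl library 2 (edgeR adjusted p from 0.0147 to 0.0168). Tigit lost it in 15 of 19, among them the unblocked fits without any one of the 6 libraries (0.0166 to 0.0538).

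Of the other Fc receptor genes, Fcer1a and Ms4a2, the α and β chains that join FcRγ in the high affinity IgE receptor of mast cells and basophils, were called higher. Fcer1a was at 0, 0.213 and 0.382 CPM in wt/wt and 5.94, 10.8 and 2.43 CPM in fl/fl (log2 fold change 4.40, SE 0.67, edgeR adjusted p = 0.00579). Its wt/wt counts were 0, 12 and 25, so it could pass the filter on low counts only with its fl/fl libraries. The size of its log2 fold change rests on this floor, and it was not tested where every library needed at least 10 counts. Ms4a2 was at 1.30, 2.48 and 1.85 CPM in wt/wt and 8.37, 11.8 and 5.18 CPM in fl/fl (log2 fold change 2.07, SE 0.31, edgeR adjusted p = 0.00564). Both were above the wt/wt range in all 3 fl/fl libraries. Both are themselves among the 10 genes of the basophil and mast cell marker list, all 10 of which had log2 fold changes above 0. Fcer1a lost its call in 9 of 18 alternatives and Ms4a2 in 9 of 19. Among these were the unblocked fits without wt/wt library 1, 2 or 4 or fl/fl library 1 or 2, where the edgeR adjusted p ran from 0.0121 to 0.0230 for Fcer1a and from 0.0198 to 0.0312 for Ms4a2.

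Upstream of the ITAMs, 1 of 9 Src family genes and regulators was called by edgeR, lower, with 1 lower and 1 higher in DESeq2 and 0 in limma-trend. Ptprc, which encodes CD45, the phosphatase that keeps Src family kinases ready, was at 4733, 3849 and 4006 CPM in wt/wt and at 2079, 2403 and 1288 CPM in fl/fl. All fl/fl libraries were below all wt/wt libraries (log2 fold change -1.17, SE 0.19, edgeR adjusted p = 0.00708), with the lowest in fl/fl library 4, and the call was lost in 12 of 19 alternatives. Without replicate 1 its edgeR adjusted p was 0.0271, and without replicate 4 it was 0.0239, and it ran from 0.0122 to 0.0419 in the unblocked fits without any one of the 6 libraries. The study states that Ncr1cre Myc wt/wt mice were bred with the CD45.1 form of CD45 as well. The labels do not say whether the sequenced wt/wt mice carried that form, and its part in the Ptprc values was not tested. Lck and Fyn, the kinases of the family most abundant in these cells, were not called, at log2 fold changes of -0.067 (edgeR adjusted p = 0.842) and -0.13 (0.635).

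Downstream, 0 of 32 tested genes of the signalosome were called by edgeR, although 29 of the 32 had log2 fold changes above 0, beside 51.5% of all tested genes. The median of the 32 was 0.22, and scaling to NK markers put the median of all genes at -0.20. The count of signs therefore depends on the scaling, and it was not repeated under that one. An unadjusted p below 0.05 was found for 7 of the 32, all higher in fl/fl, beside 22.5% of all genes in either direction and 12.4% higher. DESeq2 called 2 of the 32 higher and limma-trend 0. The 3 highest in mean CPM, not scaled to length, were Rac2, a GTPase (log2 fold change 0.12, edgeR adjusted p = 0.655), Txk, a Tec family kinase (0.16, 0.546), and Rac1 (-0.076, 0.812). Of 14 tested negative regulators, 0 were called by edgeR, DESeq2 or limma-trend, with 5 at an unadjusted p below 0.05, and the 3 most abundant were Dok2 (log2 fold change 0.60, edgeR adjusted p = 0.0641), Sla (-0.14, 0.640) and Ptpn22 (0.0018, 0.997). DESeq2 called 9 genes over all pathway lists, edgeR 5 and limma-trend 3.

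The gene whose CPM followed a member most closely was found over the 6 libraries among 8780 other genes of at least 10 CPM, by the root mean square difference of log2 values centred on each gene's mean. For 3 receptors these genes were Atraid (Ncr1, 0.049 on the log2 scale), Cyb5a (Cd226, 0.022) and Irf7 (Slamf7, 0.068). For the adaptors they were Ube2f (Fcer1g, 0.038), Arl6ip6 (Tyrobp, 0.026), Crnkl1 (Hcst, 0.054) and Zfp825 (Cd247, 0.018), and for the kinases Nupl2 (Zap70, 0.044) and Fbxo46 (Syk, 0.040).

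Myc binds DNA at the E-box CACGTG, which reads the same on both strands. RefSeq promoter windows (GRCm38.p6, 250 bases before to 50 after a start) were searched for 8 of the 10 genes, with 13 windows in all. No window of Cd226 or Tyrobp was searched. The motif stood in 1 of the 13, a downstream start of Zap70 (chr1:36778734-36779033, plus strand), and in neither of the 2 windows of Fcgr3. Of all 32851 windows, 7.15% held it. A match or its lack says only whether these letters stand in the window.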

How the data were processed

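RNA of sorted CD27SP NK cells was polyA-selected, made into libraries with the SMART-Seq v4 kit and sequenced single end by the authors. The deposited tables give, per library, estimated counts (not normalized), TPM and effective lengths for 100583 mouse transcripts. The submitters' processing notes name Salmon and GRCh38, although the identifiers are of mouse and the columns are those of kallisto.

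Estimated counts were summed by symbol through GENCODE M21 (100239 transcripts matched), rounded, filtered by filterByExpr, TMM-scaled and compared by edgeR's (4.0.16, R 4.3.3) quasi-likelihood test. The replicate number was a block because the study calls its analysis paired. Benjamini-Hochberg adjustment ran over all tested genes. Alternatives included DESeq2 (1.42.0) and limma-trend (3.58.1). The tests were tested on simulated data. Named genes are the 10 members, Myc, called pathway genes, otherwise up to 3 abundant ones per list, the leading markers of a list and each member's nearest gene (that of Fcgr3 is not reported here). Members and lists were chosen with earlier results of these data known. Fcgr1, Fcgr2b, Fcgr4, Lck, Fyn, Pou2f1, S1pr5, Cma1, Cx3cr1, Prdm1, Gzmb, Prf1, Gzma, Klre1, Cd69 and Kit were named after their values were seen. Libraries of a genotype differed by more than counting noise (chi-square per degree of freedom 39.2 to 99.0).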

Additional observations from a re-analysis of the deposited data

How the results depend on the processing

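Over the 10 genes and 19 alternatives each, 164 of 190 values kept their direction and their side of the threshold, 8 (all of Fcgr3) kept the direction but lost the call, and 18 changed sign, none of them past the threshold. Of these, 5 came with scaling to NK markers, which moved all genes alike, and 0 of the 5 changed sign relative to the median of all genes. A further 4 were of Tyrobp under other scalings and filters (2 of them also relative to that median), and 9 came from leaving out libraries (7 likewise). Leaving out libraries gave log2 fold changes of -0.17 to 0.19 for Ncr1, -0.078 to 0.093 for Tyrobp and -0.0013 to 0.34 for Syk. Scaling to NK markers gave -0.20 for Ncr1, -0.029 for Cd226, -0.041 for Fcer1g and -0.069 for Syk, and without Gzmb and Prf1, chosen after seeing the data, -0.11 for Ncr1. Tyrobp was at 0.029 with effective length offsets, 0.0020 with no filter on low counts, 0.0145 with at least 10 counts in every library and 0.0026 with library size only. The cause was not tested.

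The count of members called was 0 with effective length offsets and with library size only, and 0 to 1 on leaving out libraries. For the pathway genes (5 called), the count was 3 with no replicate block, 9 in DESeq2, 3 in limma-trend and by the largest adjusted p of the 3 tools, 0 with effective length offsets, 1 with library size only, 8 at an adjusted p below 0.05 with no fold change limit, and 0 to 3 on leaving out libraries. For all genes (333 called), the count was 1193 in DESeq2, 32 with effective length offsets, 902 with no filter, 74 with library size only, 552 with scaling to NK markers, 1212 at an adjusted p below 0.05 with no fold change limit, and 25 to 276 on leaving out libraries.

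Same-numbered libraries deviated together with correlations of 0.0063, -0.10 and 0.10 over 12128 genes, so a shared number was not shown to mean paired mice. Without the replicate block 387 genes were called, Fcgr3 remained called (edgeR adjusted p = 0.00333), no other member was called, and Ptprc and Tigit lost their calls (0.0117 and 0.0154). In the shallow wt/wt library 1, 11362 genes had at least 10 estimated counts, against 15286 to 15705 in the other libraries.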
